A study of Mus musculus with 95 samples.

Results

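T cells lying within a mouse thymoma were compared with the T cells of the cortex of control thymus. The comparison takes every segment whose cell class is given as T cells of thymoma and every segment given as cortical T cells of control thymus. There were 25 such segments among the 95 of the series, 12 from thymoma and 13 from control cortex. They were measured on sections of formalin-fixed, paraffin-embedded thymus with the GeoMx Digital Spatial Profiler, in which an operator picks regions on a stained section, splits each region by fluorescent masks into segments, and releases and sequences the barcodes of RNA probes bound within each segment. The T cell segments are the areas under the mask for CD3, a part of the T cell receptor complex, and epithelium was collected under a mask for pan-cytokeratin (PanCK), the keratins of epithelial cells.

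The thymoma mice 1042, 1044, 1082 and 1157 were Gtf2ifl/wt Foxn1-Cre/wt, that is, they carried a conditional knock-in of the Gtf2i mutation L424H with the Cre recombinase. Control mice 1057 and 1059 were Gtf2ifl/fl, and control mice 1172 and 1143 were Gtf2ifl/wt without Cre, so that the controls also carried the conditional allele. Each thymoma mouse gave 3 T cell segments. Control mouse 1057 gave 4 and each of the other controls 3. The 4 slides each held 2 mice of the same genotype, so that slide and group cannot be told apart, nor can control genotype and slide. Ages are not given in the sources used here.

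The cortex of the thymus is filled with immature T cells, which rearrange their receptor genes there and are selected on cortical epithelium, and the survivors move to the medulla, where they complete their maturation beside medullary epithelium and a few B cells. Foxn1 is the transcription factor that maintains thymic epithelium, so a Cre placed under it acts in epithelial cells and the T cells of a thymoma are not themselves the cells in which the allele is meant to be switched. Thymomas are tumours of this epithelium, and many hold large numbers of immature T cells. GTF2I, which encodes a general transcription factor, is a gene often mutated in human thymomas.

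The panel gave 20175 probe IDs, and none is paired with a gene by the tables used here. Individual genes, the Gtf2i gene among them, and the cell type of each segment could therefore not be checked against marker genes. In place of gene lists, the libraries are described with sets of probes that separated classes of control segments from each other: 969 medullary and 1149 cortical probes told apart in PanCK segments, 523 epithelial and 228 T cell probes told apart between PanCK and CD3 segments of the medulla, and 440 B cell probes told apart between segments under the B cell marker B220 and medullary T cell segments. The cortical T cell libraries compared here took no part in calling any set. Medullary T cell libraries did, for the epithelial, T cell and B cell sets, so their levels of these sets are given as a description. A set name says where its probes were higher in control thymus and nothing of their genes. The sets overlap: 71.7% of the epithelial set lies in the medullary set and 46.1% of the T cell set in the cortical set.

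Control mouse 1143 stood apart from the other 7. The mouse is the replicate, and adding up the counts of its segments gave 36879809 counts in 1057, 9260506 in 1059, 19480613 in 1172 and 874379 in 1143 among the controls. The thymoma mice gave 16939891 counts in 1042, 10700536 in 1044, 12745907 in 1082 and 17653470 in 1157. Over the probes in the upper part of the range of levels, the log2 CPM (counts scaled to the total of their library) of 1143 correlated with those of the other mice at a Pearson r of 0.386 to 0.556. The same r was 0.943 to 0.967 among the other 3 controls, 0.927 to 0.977 among the thymoma mice and 0.820 to 0.973 between those controls and the thymoma mice. The 3 segments of 1143 correlated with each other at 0.687 to 0.803 and the segments within each other mouse at 0.906 or more. These correlations are across probes, which are not independent replicates and share their library and its depth. The SD between mice was taken over 10087 probes of the upper part, from the mean log2 CPM over the segments of each mouse. Its median was 0.38 between control mice with 1143 and 0.14 without it, and 0.17 between thymoma mice. Results are therefore given with 8 mice and with the 7 mice other than 1143.

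**Figure D1:**
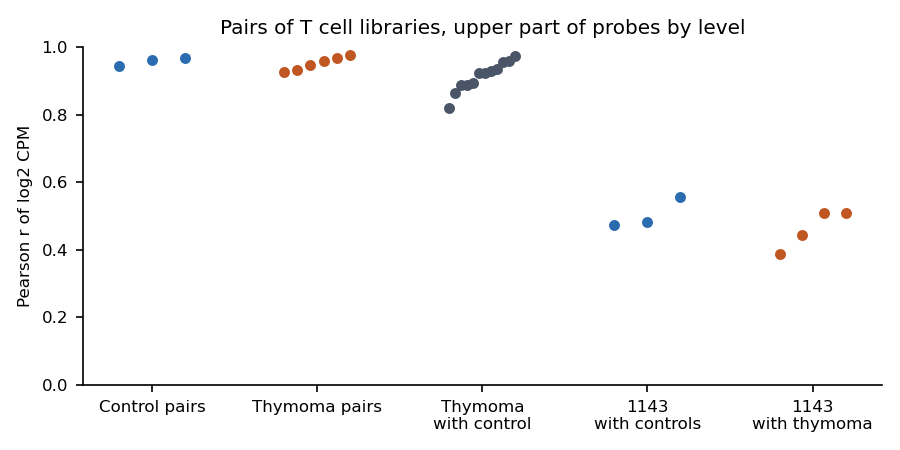
Pearson correlation of log2 CPM (y axis) between pairs of T cell libraries, each point 1 pair, over the upper part of probes by level. The pairs that include control mouse 1143 lie between 0.386 and 0.556, below every pair of the other 7 mice.

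The regions chosen in thymoma held fewer CD3 nuclei beside each PanCK nucleus than the regions chosen in control cortex. Summed over the regions of a mouse, there were 6.72 CD3 nuclei per PanCK nucleus in 1057, 13.2 in 1059, 6.65 in 1172 and 5.30 in 1143. In thymoma there were 1.94 in 1042, 1.74 in 1044, 2.56 in 1082 and 3.45 in 1157. Every thymoma mouse thus lay below every control mouse. The mean was 2.42 ± 0.770 (SD, n = 4) in thymoma and 7.97 ± 3.54 (SD, n = 4) in control cortex, a ratio of 0.304. An exact two-sided permutation test over mice gave p = 0.0286, the smallest that 4 against 4 mice allow, or 0.0857 after Benjamini-Hochberg adjustment over the 3 measures of the segments that were tested. Without 1143 the exact p was 0.0571, the smallest possible with 7 mice. Single regions overlapped: they ran from 1.08 to 5.08 with a median of 1.96 in the 12 thymoma regions and from 2.55 to 17.5 with a median of 8.48 in the 13 cortical regions. In the 11 regions of control medulla they ran from 0.739 to 3.40 with a median of 1.34. PanCK segments made up 41.7% to 54.8% of the masked area per thymoma mouse, 11.4% to 19.8% per mouse in control cortex and 45.9% to 58.2% in control medulla. These values describe regions that an operator chose and not whole tumours.

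The density of nuclei under the CD3 mask did not separate the groups, and within thymoma it split by slide. The controls had 30.8 nuclei per 1000 square µm in 1057, 28.6 in 1059, 27.3 in 1172 and 26.3 in 1143. The thymoma mice had 19.5 in 1042 and 22.1 in 1044, which share a slide, and 31.0 in 1082 and 29.0 in 1157, which share the other. The first pair lay below every control. Of the second pair, 1157 lay among the controls and 1082 just above them. The group means were 25.4 ± 5.47 in thymoma and 28.3 ± 1.94 in control (SD, n = 4 each), with an exact two-sided permutation p of 0.4, or 0.514 without 1143.

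Counts per nucleus were 1399 in 1057, 718 in 1059, 998 in 1172 and 72.0 in 1143, against 2048 in 1042, 1258 in 1044, 1020 in 1082 and 1421 in 1157. The thymoma mean exceeded the control mean by 640 counts per nucleus, with overlapping mice and an exact two-sided permutation p of 0.114, or 0.171 adjusted over the same 3 measures. Without 1143 the difference was 399 counts per nucleus, with an exact p of 0.229. In segments of tissue, fewer cells of a type and less RNA per cell cannot be told apart.

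**Figure D2:**
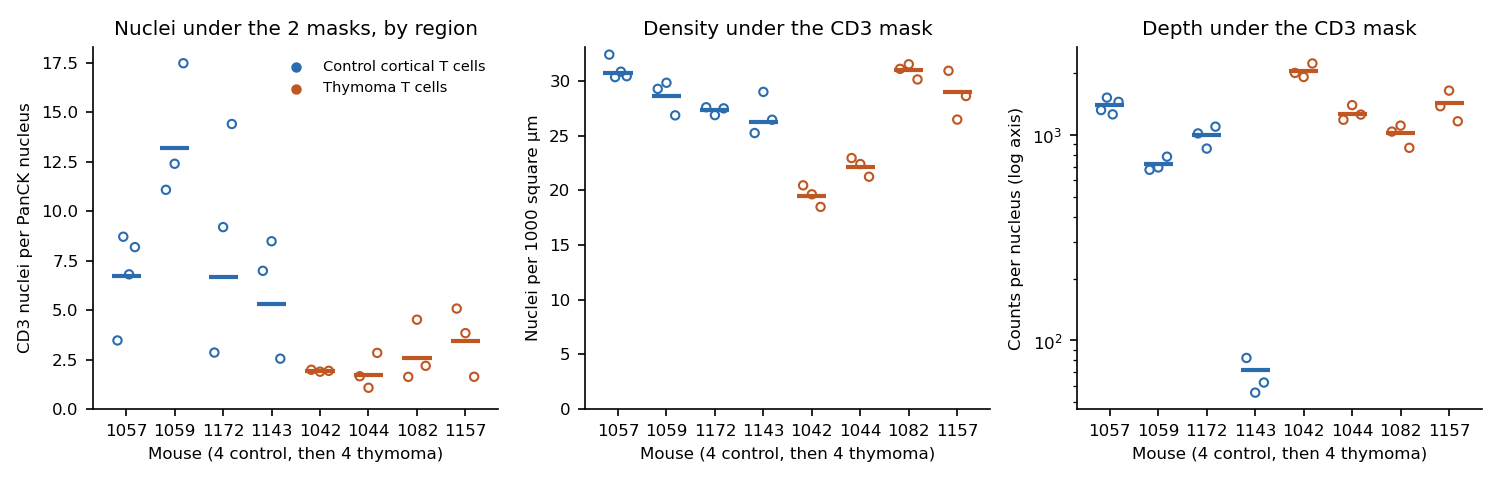
Nuclei and depth of the CD3 segments by mouse: CD3 nuclei per PanCK nucleus in the same region, nuclei per 1000 square µm and counts per nucleus on a log axis. Open points are regions or segments and bars are the value summed over a mouse. The thymoma bars for CD3 nuclei per PanCK nucleus lie between 1.74 and 3.45, below all control bars, while mouse 1143 has 72.0 counts per nucleus.

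Thymoma T cell libraries held more of the signal of probes that mark epithelium in control medulla. Of this epithelial set, 71.7% also lies in the medullary set, which was lower in cortical than in medullary epithelium of controls. The set thus does not stand for cortical epithelium or for epithelium in general. The level of a set in a library is given as the mean log2 CPM of its probes less the mean over all probes. For the epithelial set it was 0.04 in 1057, -0.02 in 1059, 0.02 in 1172 and 0.04 in 1143. In thymoma it was 0.47 in 1042, 0.48 in 1044, 0.19 in 1082 and 0.28 in 1157, so that the groups did not overlap. The 2 mice with the higher levels were those on the slide with fewer nuclei per area and with the fewest CD3 nuclei per PanCK nucleus. Even the single segments did not overlap, with 0.18 as the lowest thymoma and 0.08 as the highest control segment. Medullary T cell segments of control thymus, which also lie among much epithelium, had levels of 0.31 in 1057, 0.20 in 1172 and 0.24 in 1143. The PanCK share of the masked area was also higher in every thymoma mouse than in every control cortex, but within thymoma it did not follow the set: it was 45.2% in 1042, 43.5% in 1044, 54.8% in 1082 and 41.7% in 1157. Its part in the result was not tested.

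The B cell set was higher in thymoma T cell libraries too. Its level was 0.78 in 1057, 0.78 in 1059, 0.61 in 1172 and 0.63 in 1143, against 1.22 in 1042, 1.22 in 1044, 0.97 in 1082 and 1.22 in 1157. No thymoma mouse overlapped a control mouse, and 1082 lay below the other thymoma mice. In medullary T cell segments the level spread from 0.50 in 1143 and 0.61 in 1172 to 1.04 in 1057. The set shares 16.1% of its probes with the medullary set, 13.4% with the cortical set and 12.5% with the epithelial set.

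The cortical set had levels of 1.43 in 1057, 1.62 in 1059, 1.15 in 1172 and 1.04 in 1143, and of 1.92 in 1042, 1.64 in 1044, 1.65 in 1082 and 1.85 in 1157. The thymoma levels were above all control levels, though 1059 lay only just below 1044. Single segments overlapped: one of 1059 stood at 1.706, above the highest of 1044 at 1.696 and of 1082 at 1.681. Medullary T cell libraries had 1.02 in 1057, 0.59 in 1172 and 0.39 in 1143, each lower than the cortical T cell library of the same mouse. On this set the thymoma T cell libraries thus lay on the far side of cortex from medulla. The cortical probes were found in epithelial segments of the same control regions, and 1034 of the 1149 fall in the most abundant of 4 groups of probes by level, which had a median log2 fold change of 0.28.

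The T cell set overlapped between the groups with and without 1143, and the medullary set overlapped through 1143 alone. The T cell set stood at 1.58 in 1057, 1.60 in 1059, 1.19 in 1172 and 1.01 in 1143, and at 1.52 in 1042, 1.51 in 1044, 1.54 in 1082 and 1.73 in 1157. The 2 controls on the Gtf2ifl/fl slide lay within the thymoma range, and the 2 on the other control slide below it. The medullary set stood at -0.25 in 1057, -0.33 in 1059, -0.24 in 1172 and -0.17 in 1143, and at -0.09 in 1042, -0.04 in 1044, -0.22 in 1082 and -0.15 in 1157. Without 1143 every thymoma library lay above every control library on the medullary set, by a small distance between 1082 and 1172. Medullary T cell libraries, between 0.09 and 0.18, lay above every thymoma library on this set.

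**Figure D3:**
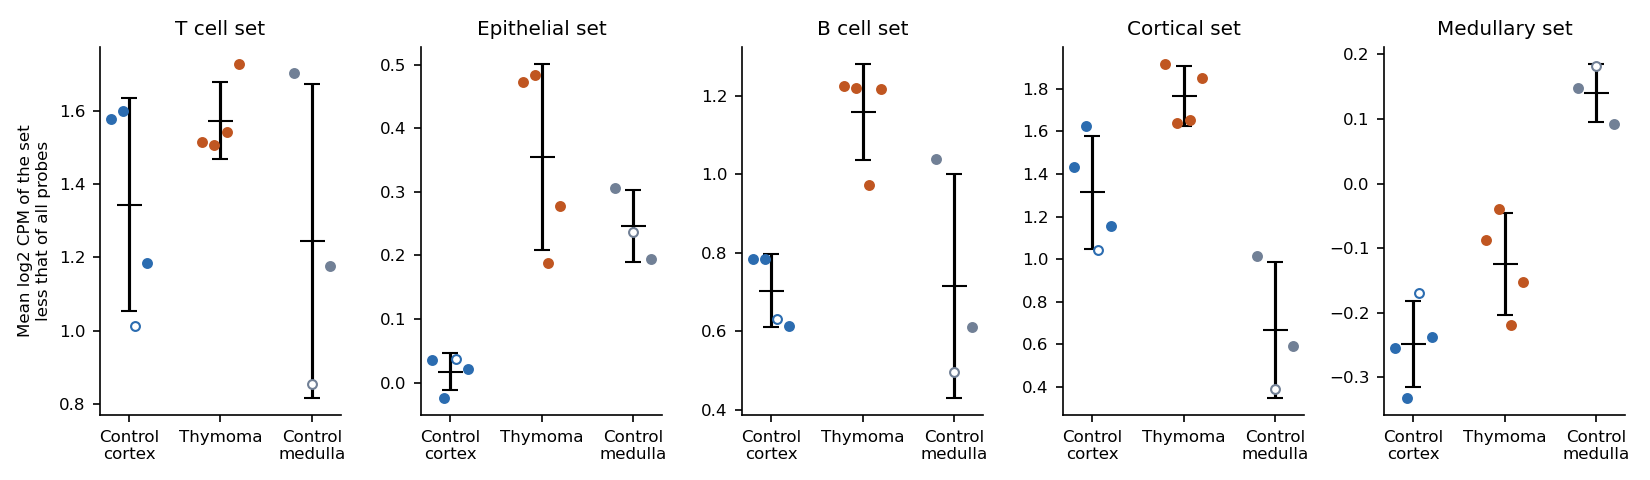
Level of each probe set (mean log2 CPM of its probes less the mean of all probes, y axes differ) in T cell libraries of control cortex, thymoma and control medulla. Points are mice, with mouse 1143 open, and bars are mean ± SD. Thymoma lies above control cortex without overlap for the epithelial, B cell and cortical sets and overlaps it for the T cell set and, through mouse 1143 alone, for the medullary set.

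How many probes passed a test depended on mouse 1143. With 8 mice, edgeR's quasi-likelihood test called 1 of 20175 probes (0.00496%) at a Benjamini-Hochberg adjusted p below 0.05, with 0 higher (0%) and 1 lower in thymoma, while 4629 had an unadjusted p below 0.05. On the same 8 mice, DESeq2 called 774 probes higher (3.84%) and 341 lower (1.69%). limma voom called 10 higher and 1 lower, and with weights for the quality of each library it called 2691 higher (13.3%) and 3321 lower (16.5%). The weights it estimated were 0.265 for 1143, the lowest, and 4.12 for 1057, the highest. Without 1143, edgeR called 1355 probes higher in thymoma T cells (6.72%) and 1679 lower (8.32%), 3034 in all (15%), with 7561 at an unadjusted p below 0.05. Of these, 1300 higher and 1630 lower probes were also called by the weighted fit of all 8 mice, and 732 and 340 by DESeq2. A fit of all 8 groups of the series, which share 1 estimate of the spread, called 297 higher (1.47%) and 208 lower (1.03%) with 8 mice, of which 293 and 208 were among them. That fit had no term for the mouse, so libraries of the same mouse from different groups entered its spread as if independent. The biological coefficient of variation that edgeR estimated was 0.203 with 8 mice and 0.130 with 7. For the control group alone it was 0.279 with 1143 and 0.114 without, and 0.139 for thymoma.

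The count without 1143 also changed when a further mouse was left out. The count fell to 678 without 1057, to 5 without 1059 and to 7 without 1172, and it fell to 206 without thymoma mouse 1042 and to 381 without 1157. It rose to 4893 without 1082. With upper-quartile scaling, which moved the median log2 fold change of all probes from -0.02 to -0.18, the 7 mice gave 1067 higher and 4655 lower calls.

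The fold changes of probes called higher were larger in size than those of probes called lower. Their median log2 fold change had a size of 0.68 among the 1355 higher probes, 213 of which exceeded 1, and of 0.37 among the 1679 lower probes, 3 of which exceeded 1. Library 1143 took no part in these calls. It lay nearer to the mean of the other controls than to the thymoma mean for 847 of the 1355 higher probes (62.5%), against 53.9% of all probes with a higher mean in thymoma. For the lower probes this held for 509 of 1679 (30.3%), against 50.2% of all probes with a lower mean in thymoma. The median count of a probe in 1143 was 29 for the higher and 16 for the lower probes. These shares changed with the count. Among probes past a minimum of 30 counts in 1143, that library lay nearer to the controls for 319 of 669 higher probes (47.7%). The background there was 1517 of 4664 probes (32.5%). Among lower probes past that minimum it did so for 127 of 172 (73.8%), against 2640 of 2932 in the background. The minimum itself picks probes that are high in 1143. Over all probes and 8 mice, every thymoma library lay above every control library at 8.17% and below at 6.78% of probes, 14.9% in all. With 7 mice these shares were 14.1%, 17.8% and 31.9%. Of the probes called without 1143, the 8 mice did not overlap at 809 of the higher and 524 of the lower ones.

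The direction of a call went with the level of the probe. When the probes were put in 4 groups of equal size by mean level, from lowest to highest, 3.17%, 2.04%, 5.97% and 15.7% of them were called higher without 1143. The share called lower was 10.9%, 16.2%, 4.42% and 1.84% in the same order. The median log2 fold change was -0.13, -0.16, 0.03 and 0.28. The most abundant group of probes took 67.1% of the counts in 1042, 61.3% in 1044, 61.0% in 1082 and 64.6% in 1157. In the controls it took 58.0% in 1057, 59.4% in 1059, 54.6% in 1172 and 56.2% in 1143. This share was higher in every thymoma library than in any control library. The grouping used the mean level over the 7 mice other than 1143, so probes high in thymoma could enter the most abundant group through thymoma. The SD of log2 CPM over all probes of a library, which needs no grouping, overlapped. It was 1.04 to 1.17 in thymoma, 0.91 to 1.07 in the other controls and 1.23 in the shallow 1143. Whether the higher share comes from the cells or from signal that probes give without their target was not tested.

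**Figure D4:**
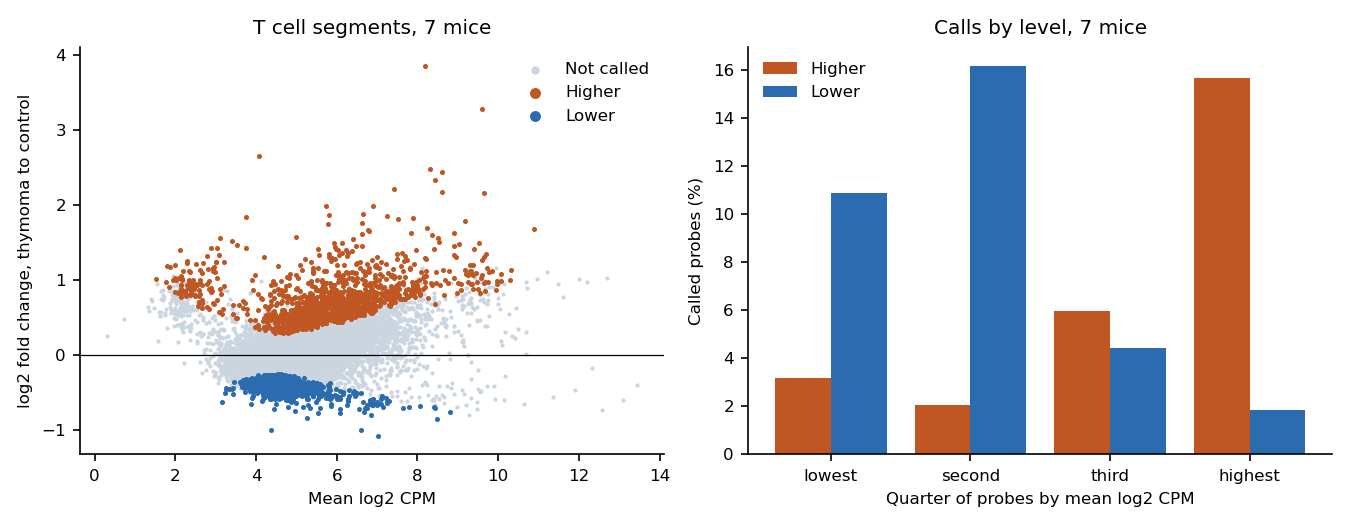
Fold change against level of 20175 probes without mouse 1143 (log2 fold change, thymoma T cells to control cortical T cells, against mean log2 CPM), and the percentage of probes called higher or lower in 4 groups of probes of equal size by level. Calls higher in thymoma make up 15.7% of the most abundant probes and calls lower in thymoma 16.2% of the second lowest group.

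By probe set, the epithelial and B cell sets held the greatest shares of calls among the 5 sets. Without 1143, edgeR called 178 of 523 epithelial probes higher (34.0%) and 7 lower, with a median log2 fold change over the set of 0.31. It called 161 of 440 B cell probes higher (36.6%) and 6 lower, with a median of 0.37. In the cortical set 215 of 1149 were higher (18.7%) and 2 lower, with a median of 0.36, and in the medullary set 167 of 969 were higher (17.2%) and 20 lower, with a median of 0.10. The T cell set had 5 higher and 5 lower of 228, with a median of 0.16. The background over all probes was 6.72% higher and 8.32% lower, with a median of -0.02. With 8 mice the 1 probe called lay in none of the sets, and the medians were 0.28 for the epithelial, 0.35 for the B cell, 0.40 for the cortical, 0.08 for the medullary and 0.20 for the T cell set, against -0.06 over all probes.

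Since calls went with level, the sets were also read within the most abundant group of probes, of which 15.7% were called higher. There 96 of 148 epithelial probes were higher (64.9%), 123 of 227 B cell probes (54.2%), 61 of 130 medullary probes (46.9%), 194 of 1034 cortical probes (18.8%) and 5 of 177 T cell probes (2.82%). In the next lower group, with 5.97% of all probes called higher, the shares were 30.4% of 158 epithelial, 21.4% of 117 B cell, 17.4% of 321 medullary and 17.9% of 95 cortical probes. The cortical share was thus near that of all probes in the most abundant group and above it in the next, which is a description and not a test. Of all 20175 probes, 2640 lie in at least 1 set. Of the probes called higher, 537 of 1355 lie in a set, and of those called lower, 33 of 1679.

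Under quantile normalization of 7 mice the median of the T cell set turned to -0.11, against -0.02 over all probes. Under upper-quartile scaling the median of the medullary set was -0.05 with 8 and with 7 mice, but that scaling shifted all probes, and relative to their median the set stood at 0.15 with 8 and 0.12 with 7 mice, against 0.15 and 0.13 in the TMM fits. Quantile normalization lowered the number of higher calls without 1143 to 441 of all probes (2.19%), with 102 epithelial (19.5%), 97 medullary (10.0%), 70 B cell (15.9%) and 37 cortical probes (3.22%) among them. The choice of controls changed the size of the medians and not their sign. Against the Gtf2ifl/fl controls alone, the medians were 0.32 for the epithelial, 0.32 for the B cell, 0.25 for the cortical, 0.02 for the T cell and 0.12 for the medullary set. Against the Gtf2ifl/wt controls alone, mice 1172 and 1143, they were 0.24, 0.40, 0.63, 0.39 and 0.05 in the same order.

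Probe RTS0081628 showed the greatest increase under the rule used to name probes. Its level in control cortical T cells was 44.5 CPM in 1057, 30.3 in 1059, 27.3 in 1172 and 72.8 in 1143. In thymoma T cells it was 103 CPM in 1042, 113 in 1044, 1545 in 1082 and 231 in 1157. Mouse 1082 was far above the rest. That the groups do not overlap was required by the rule for the probes not called with 8 mice, as it was for RTS0064753 and RTS0067419. The log2 fold change was 3.55 ± 0.87 (SE) with 8 mice, with an edgeR adjusted p of 0.148, and 3.86 ± 0.85 with an adjusted p of 0.0287 without 1143. Without 1143 and 1082 it was 2.14, with an edgeR adjusted p of 0.00438, and without 1143 and either 1059 or 1172 the adjusted p was 0.0660 or 0.154. The probe belongs to the cortical, epithelial and B cell sets. In epithelium segments of the same thymomas it was higher than in the T cells in every mouse, at 416 CPM in 1042, 494 in 1044, 2446 in 1082 and 758 in 1157, and the log2 fold change against cortical epithelium was 4.18 ± 0.67 (SE; edgeR adjusted p = 0.00566). The order of the 4 thymoma mice was the same under the CD3 and PanCK masks, from 1082 through 1157 and 1044 to 1042. In B cell segments of these thymomas the probe measured 869 CPM in 1042, 317 in 1044, 3299 in 1082 and 138 in 1157. These values exceeded those of epithelium in 1042 and 1082 and those of T cells in every mouse but 1157. The order of the mice also differed there.

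Probe RTS0064753 measured 155 CPM in 1057, 159 in 1059, 87.5 in 1172 and 23.9 in 1143. In thymoma it measured 1193 CPM in 1042, 455 in 1044, 275 in 1082 and 477 in 1157. Here 1042 was the highest of the thymoma mice and 1143 the lowest of the controls. The log2 fold change was 2.49 ± 0.60 (SE) with 8 mice (edgeR adjusted p = 0.148) and 2.18 ± 0.44 without 1143 (edgeR adjusted p = 0.0274). Without 1143 and either 1059 or 1172 the adjusted p was 0.0605 or 0.154. The probe is one of the cortical set. Its value in 1143 rests on 19 counts. In thymoma epithelium it was higher than in the T cells of every mouse, at 2051 CPM in 1042, 772 in 1044, 1013 in 1082 and 1345 in 1157. The log2 fold change against cortical epithelium was 2.44 ± 0.61 (SE; edgeR adjusted p = 0.0418), with 0 counts in 1143. The T cell change less the epithelium change was -0.17 ± 0.21 (SE) with 8 mice and was not called.

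Probe RTS0067642 was the 1 probe called with all 8 mice. It fell from 26.3 CPM in 1057, 34.2 in 1059, 28.8 in 1172 and 23.9 in 1143 to 13.6 CPM in 1042, 14.1 in 1044, 15.9 in 1082 and 14.6 in 1157. The mice of the 2 groups did not overlap, and the thymoma mice lay closer together than the controls. Single segments did overlap: before TMM scaling, segments of 1143 had 12.9 and 12.8 CPM, while a segment of 1082 reached 18.3. The value of 1143 rests on 19 counts, and the probe was not among the upper part of probes by mean CPM. Its log2 fold change was -0.99 ± 0.11 (SE; edgeR adjusted p = 0.0365), and -1.01 ± 0.10 without 1143 (edgeR adjusted p = 0.000936). The call with 8 mice was lost without any single one of 1057, 1059, 1172, 1042, 1044, 1082 or 1157, with edgeR adjusted p from 0.0648 to 0.370, and fold changes from -1.05 to -0.89. A fall of like size was seen in epithelium, with a log2 fold change of -0.89 ± 0.14 (SE; edgeR adjusted p = 0.00475). The probe lies in none of the sets.

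Probe RTS0067419 shows how 1143 sets a fold change. It measured 51.9 CPM in 1057, 68.2 in 1059, 61.6 in 1172 and 504 in 1143, against 38.0 in 1042, 42.9 in 1044, 49.0 in 1082 and 48.1 in 1157. The log2 fold change was -1.88 ± 0.67 (SE; edgeR adjusted p = 0.167) with 1143 and -0.43 ± 0.14 (edgeR adjusted p = 0.0485) without it. The same mouse was high in its other classes, with 360 CPM in medullary T cells and 530 CPM in cortical epithelium, where the other controls had 51.0 to 60.6 CPM.

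**Figure D5:**
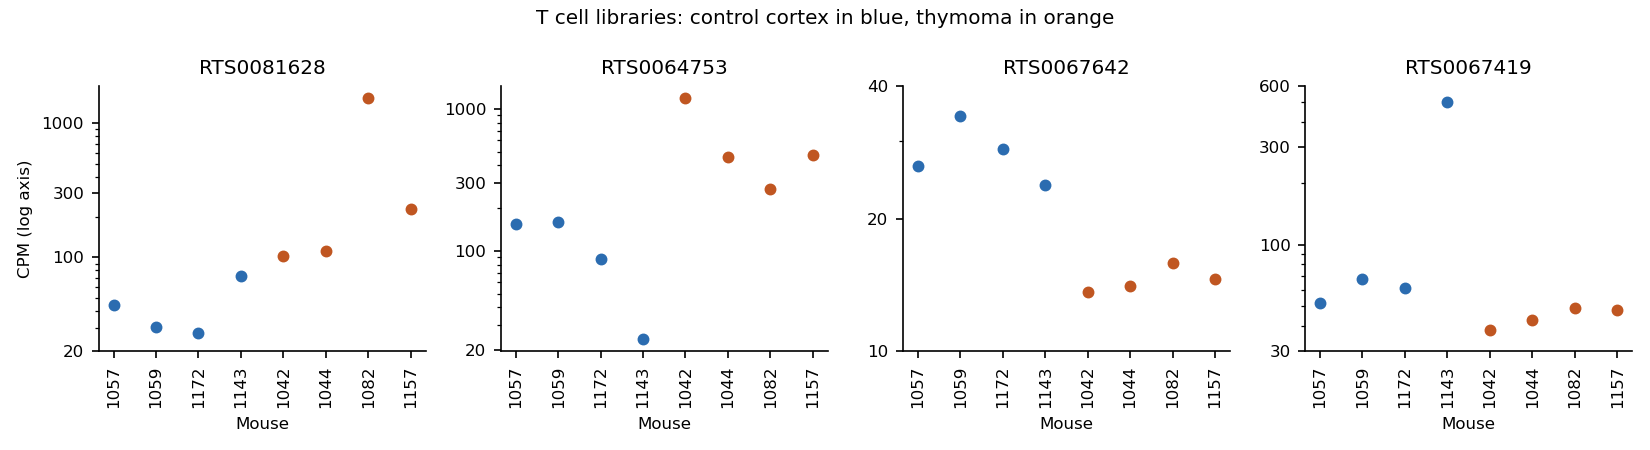
CPM on log axes of the 4 named probes in the T cell library of each mouse, with the 4 control mice in blue and the 4 thymoma mice in orange. RTS0081628 is led by 1082 at 1545 CPM, RTS0067419 by control 1143 at 504 CPM, and RTS0067642 lies between 13.6 and 15.9 CPM in thymoma.

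Whether the T cell segments changed differently from the epithelium beside them was tested as an interaction of group and mask, with the mouse as a block. With 8 mice, edgeR called 334 of 20175 probes (1.66%): 89 whose change was higher in T cells (0.441%) and 245 whose change was lower (1.21%). Without 1143 it called 146 higher (0.724%) and 213 lower (1.06%), 359 in all (1.78%), among them all 89 and 208 of the 245. As a description of the probes so chosen, the 89 had a median log2 fold change of 0.33 in T cells and of -0.14 in epithelium, and the 245 of 0.33 in T cells and of 0.88 in epithelium. Unlike the fold change of T cells alone, the interaction was called in like numbers with and without 1143, but the count fell to 57 without 1057, to 187 without 1059 and to 80 without 1172.

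The interaction split the T cell and epithelial sets. With 8 mice, 31 of the 228 T cell probes were called, each with a higher change in T cells than in epithelium. In the epithelial set 1 of 523 was higher and 87 were lower, and in the B cell set 2 of 440 were higher and 7 lower. The background over all probes was 0.441% higher and 1.21% lower, and the B cell shares were near it. Without 1143, 46 T cell probes were called, again all higher, with 2 higher and 77 lower in the epithelial set and 5 higher and 6 lower in the B cell set. Over epithelium alone the median log2 fold change with 8 mice was -0.09 for the T cell set and 0.55 for the epithelial set, while over T cells it was 0.20 and 0.28. The cortical and medullary sets were called from control epithelium libraries, of which the cortical ones enter this test, and are not given for it. Of the T cell set, 46.1% lies in the cortical set, and of the epithelial set, 71.7% lies in the medullary set. The counts by set are therefore a description and not independent support. RTS0081628 was among the probes that changed less in T cells, with a difference of -1.08 ± 0.27 (SE; edgeR adjusted p = 0.0350), and an adjusted p of 0.0606 without 1143.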

How the data were processed

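The panel was the GeoMx mouse whole transcriptome atlas. Each deposited file holds the counts of 1 segment, whole numbers per probe, and the file headers name GeoMx_NGS_Pipeline 2.0.0 as the software and DCC 0.02 as the format. These counts were used as the authors deposited them, without background subtraction. Probes not listed in a segment were taken as 0. For 19 files the column of counts could not be named without ambiguity. These files were read in the same way as the others and held whole numbers.

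T cell segments held 155626 to 12551297 counts at a saturation of 71.4% to 87.0%. Probes were kept by filterByExpr, which kept all 20175. Libraries were scaled by TMM, and CPM use these scaled totals. Tests were edgeR 4.0.16 quasi-likelihood tests in R 4.3.3 (adjusted p below 0.05), checked on simulated counts. Exact permutation tests used scipy 1.17.1. Segments of a mouse were never counted as replicates, and p-values measure the spread between mice. The fit of all 8 groups and the interaction without a block are exceptions, since they took libraries of the same mouse as independent. For the interaction the mouse was a block, since both masks come from the same mice: deviations of the 2 libraries of a mouse from their group means correlated at 0.555 to 0.876, each above its correlation with any other mouse.

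The probe sets were called with edgeR and the mouse as a block, in 3 control mice with 1143 among them. Probes were named by a rule: at most 2 higher and 2 lower, first those called with 8 mice, then the largest fold changes among probes called without 1143, above the median level and separated over 8 mice (721 higher, 75 lower). The comparison, sets and rule were chosen with earlier results of these data known. Gene marker lists were not used, since probe IDs have no names here. Alternatives were other scalings, filters, tools (DESeq2 1.42.0, limma 3.58.1), control genotypes and leaving out each mouse.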

Additional observations from a re-analysis of the deposited data

Results flagged for a closer look

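Among 26 groups of mice examined, 4 had 1 mouse far from the others of its group by Dixon's criterion. Chance alone gives this in about 1 of 20 groups that are independent and not picked from the data. The named probes were picked by their fold changes in these mice and the sets share probes, so this rate does not hold for them. In thymoma T cells the B cell set stood at 0.9739 in mouse 1082, below the other 3 mice, and the T cell set at 1.73 in mouse 1157, above the other 3. Probe RTS0081628 stood at 1545 CPM in the thymoma T cells of 1082, and probe RTS0067419 at 503.7 CPM in the control cortical T cells of 1143.

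The change of T cells differed from that of epithelium, by the test of the difference itself with edgeR, at 334 probes with 8 mice and 359 without 1143. The difference for RTS0081628, T cell change less epithelium change, was -1.079 on the log2 scale (edgeR adjusted p = 0.0350 with 8 mice and 0.0606 without 1143).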

How the results depend on the processing

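With 8 mice the count of 1 called probe became 0 with upper-quartile scaling, 0 with quantile normalization, 0 with the upper part of probes by level, 0 with the mean of log2 CPM over segments and 0 against Gtf2ifl/wt controls alone, all by edgeR or limma. It became 7 against Gtf2ifl/fl controls alone, 11 with limma voom, 505 with all 8 groups in 1 fit, 1115 with DESeq2 and 6012 with voom and sample weights. Leaving out each mouse gave 0 to 3034. In the edgeR fit 4629 probes had an unadjusted p below 0.05. Without 1143 the 3034 calls became 994 with quantile normalization, 802 with the upper part of probes, 1720 with voom, 4663 with all 8 groups, 5509 with DESeq2 (3132 higher and 2377 lower), 5722 with upper-quartile scaling and 5829 with voom and sample weights. They became 7 against Gtf2ifl/fl controls and 0 against 1172 alone, which was assumed to vary like the other mice. Leaving out each further mouse gave 5 to 4893. The cause of these shifts was not tested. The fits of all 8 groups had no mouse term and took libraries of the same mouse as independent.

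The interaction without the replicate block gave 0 calls with 8 mice and 0 with 7, by edgeR. With the block, leaving out each mouse gave 57 to 410 calls with 8 mice and 23 to 472 with 7 (23 without 1057, 50 without 1172, 196 without 1059), and DESeq2 gave 228 with 7. Thymoma and control T cells come from different mice, so the direct comparison has no such block. The difference in CD3 nuclei per PanCK nucleus ran from -6.43 to -3.80 when a mouse was left out, where the exact p cannot fall below 0.0571. The shallow depth of 1143, with a median of 23 counts per probe, limits the precision of its low probes.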
